A study of Mus musculus with 6 samples.

Results

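The proteasome genes comprised the 50 symbols among 23183 in the deposited tables that begin with Psma, Psmb, Psmc, Psmd, Psme, Psmf or Psmg followed by a digit. They were measured by RNA sequencing in group 2 innate lymphoid cells (ILC2), which are lymphocytes without antigen receptors, taken from the lungs of wild-type mice. The cells of all 6 libraries were kept with IL-2, IL-7 and IL-33, at 10 ng/ml, for 24 h. In 3 libraries they also received DTA-1, an agonist antibody to the TNF receptor family member GITR, and in the other 3 the isotype control antibody IgG2b. The labels give neither the age of the animals nor the antibody dose. They also leave unsaid whether the libraries stem from different animals or cultures, so the spread behind the p-values may be technical. Both groups carry the cytokines, and cells without them were not analysed here.

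The proteasome degrades proteins tagged with ubiquitin. Its barrel-shaped 20S core has outer rings of alpha subunits (Psma genes) and inner rings of beta subunits (Psmb genes), and the beta subunits encoded by Psmb5, Psmb6 and Psmb7 cut the peptide chain. In the immunoproteasome, which is abundant in lymphocytes and induced by interferon, Psmb8, Psmb9 and Psmb10 products take their places, and the PA28 ring encoded by Psme1 and Psme2 can open the core. The 19S cap, built from ATPases (Psmc genes) and other subunits (Psmd genes), binds ubiquitin and feeds unfolded substrates into the core. By role, the 50 symbols held 8 alpha subunits, 7 constitutive and 4 inducible beta subunits, 6 ATPases and 11 other cap subunits, 6 activators or inhibitors and 7 assembly chaperones. The remaining symbol, Psmc3ip, encodes a partner of the recombinases of homologous recombination and is no part of the proteasome.

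Promoters of 6 genes are shown because their transcripts carry the contrasts described for the inducible subunits, the PA28 ring and the largest differences in the core and the cap. Each stretch runs from 120 bases before the annotated start to 30 bases after it, 5′ to 3′ on the gene's own strand, and comes from RefSeq on GRCm38.p6. The stretches of Psmb8, Psmb9 and Psme1 lie wholly inside the spans that another annotation, GENCODE, gives these genes. All distances and matches therefore hold for the RefSeq start only. Capitals mark matches, on either strand, to any of 7 motifs that were searched.
Psmb8, chr17:34198075-34198224, plus strand: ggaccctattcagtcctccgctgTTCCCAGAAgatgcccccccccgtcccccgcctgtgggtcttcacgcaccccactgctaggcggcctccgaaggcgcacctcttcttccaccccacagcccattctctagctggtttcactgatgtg
Psmb9, chr17:34187301-34187450, minus strand: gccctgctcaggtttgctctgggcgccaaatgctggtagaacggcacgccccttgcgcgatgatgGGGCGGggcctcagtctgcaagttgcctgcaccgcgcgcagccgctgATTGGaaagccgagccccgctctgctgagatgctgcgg
Psme1, chr14:55578374-55578523, plus strand: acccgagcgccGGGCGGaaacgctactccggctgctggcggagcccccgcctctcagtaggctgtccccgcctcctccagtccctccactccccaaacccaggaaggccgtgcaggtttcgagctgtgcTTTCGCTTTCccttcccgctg
Psme2, chr14:55591072-55591221, minus strand: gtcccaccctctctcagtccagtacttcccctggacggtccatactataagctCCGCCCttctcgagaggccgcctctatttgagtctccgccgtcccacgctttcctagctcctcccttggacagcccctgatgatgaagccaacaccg
Psmb6, chr11:70525237-70525386, plus strand: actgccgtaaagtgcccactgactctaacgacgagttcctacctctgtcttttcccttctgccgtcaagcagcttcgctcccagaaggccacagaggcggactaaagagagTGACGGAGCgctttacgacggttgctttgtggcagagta
Psmd8, chr7:29180644-29180793, minus strand: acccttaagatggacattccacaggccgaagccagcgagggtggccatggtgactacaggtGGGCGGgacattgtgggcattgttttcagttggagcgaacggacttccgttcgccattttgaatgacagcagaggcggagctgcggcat
In Psmb8 the match was to the GAS element (TTCNNNGAA), an interferon-gamma response motif, with its first base 97 bases before the start. In Psmb9 a GC box (GGGCGG) and a CCAAT box lay 55 and 8 bases before the start, and no interferon motif was found in this window. Psme1 had an interferon-stimulated response element (GAAA, any 2 bases, GAAA; here on the opposite strand) from the tenth base of the transcript and a GC box 109 bases before the start, whereas the window of Psme2, the more upstream of its 2 listed starts, had a GC box alone, 67 bases before it. Psmb6 had an antioxidant response element (TGACNNNGC), the letters bound by NRF1 and NRF2, 9 bases before the start, and Psmd8 a GC box 59 bases before it.

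Of the 50 genes, 42 had a promoter in the RefSeq table. Over windows of 280 bases, 250 before the start and 30 from it, ETS motifs (CCGGAAG) were found in 15 of these 42 (35.7%), against 9.48% of all 27025 genes with a promoter and 21.9% of the genes tested here. The interferon-stimulated response element was found in 5 (11.9%), against 3.80% of all genes and 3.47% of those tested. In the same order, the antioxidant response element was found in 6 (14.3%, against 13.0% and 16.2%), the GAS element in 3 (7.14%, against 9.04% and 7.92%) and the NF-kB motif in 1 (2.38%, against 4.83% and 5.81%). The CCAAT box was found in 15 (35.7%, against 39.7% and 42.7%) and the GC box in 23 (54.8%, against 37.3% and 69.6%). Matches to different motifs were counted separately where they overlapped. These are matches of letters only.

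The smallest steps between low values put the depth at roughly 19000000 to 20500000 fragments per library. Only values inside a window fixed in advance entered this estimate. The window itself confines the estimate, so it cannot rank the libraries by depth. Levels are given as FPKM, fragments scaled by transcript length and library depth, so different genes can be set side by side. All 10 ILC2 markers checked passed the filter on low values, from Rora at a mean of 19.1 FPKM over the 6 libraries to Il13, and Gata3 stood at 172 FPKM. Among markers of other cells, Pecam1 (31.4 FPKM), Cd3g (8.84), Cd79b (4.49), Cd68 (2.95) and Epcam (2.66) were present, whereas the means of Cd3e (0.733), Cdh5 (0.00196), Lyz2 (0.00988) and Sftpc (0.027) were low. Summed over their lists, ILC2 markers stood at 6160 to 7310 FPKM with the isotype and 10000 to 11500 under DTA-1. T cell markers stood at 10.5 to 11.7 and 8.34 to 9.74, and epithelial markers at 3.88 to 4.64 and 1.48 to 2.18. None of these sums overlapped between groups. The sums of all other lists did, such as endothelial markers at 31.5 to 43.8 and 19.9 to 38.7. Few genes carried the sums without overlap. Il13 (mean 3870 FPKM), Il5 (2680) and Il2ra (1320) made up most of the ILC2 sum, Cd3g most of the T cell sum and Epcam most of the epithelial sum. The part of these shifts in the results was not tested. In bulk samples, a different mix of cells and a different amount of RNA per cell cannot be told apart.

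1 library stood apart over the proteasome genes. In isotype replicate 2, genes with GC-poor transcripts were high and those with GC-rich transcripts low: relative to the mean of the other 5 libraries on the log2(FPKM + 1) scale, Psmc6 (GC content 37.0%) stood at 0.53 and Psmd10 (42.6%) at 0.68, while Psmb5 (57.1%) stood at -0.51 and Psmb10 (56.5%) at -0.60. Across the 48 tested members, which share the library, Pearson's r between GC content and this deviation was -0.609 (Spearman's rho -0.625). It was -0.523 over the 10447 tested genes with a known GC content, and between -0.133 and 0.43 for the members in the other libraries, whose Spearman's rho lay between -0.0725 and 0.568 (DTA-1 replicate 2). The spread of the deviations was 0.33 (SD) in isotype replicate 2 and 0.10 to 0.23 in the others. Each of those libraries was likewise set against the mean of the other 5, which included isotype replicate 2. Their correlations and spreads are therefore not independent of that library. Values without this library are given beside the results it moves most.

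**Figure D1:**
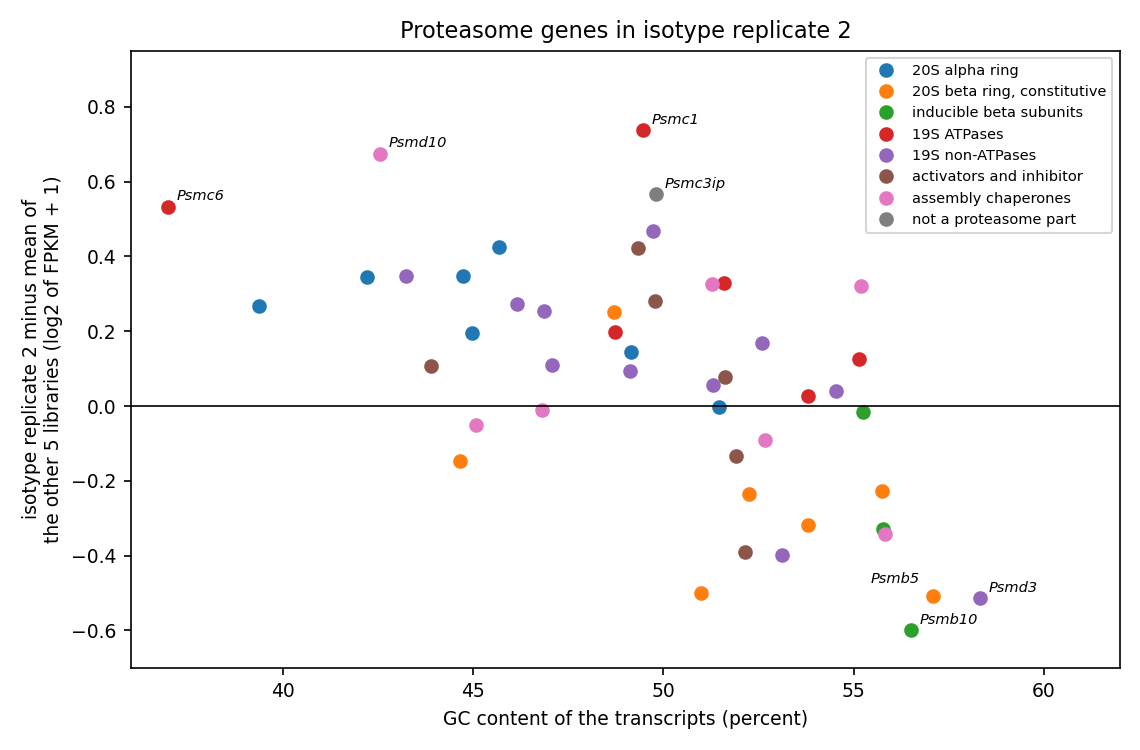
Difference between isotype replicate 2 and the mean of the other 5 libraries (vertical axis, log2 of FPKM + 1) against the GC content of the transcripts in percent (horizontal axis), 1 point for each of 48 tested genes, coloured by role. The points slope downward (Pearson's r -0.609), with Psmc1, Psmd10 and Psmc3ip highest and Psmb10, Psmd3 and Psmb5 lowest.

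The proteasome genes as a whole stood at nearly the same level in both groups. Their sum made up 1.026% ± 0.0318 (SD, n = 3) of all FPKM in the isotype group and 1.034% ± 0.0328 with DTA-1. No member passed the limma test adjusted over all 10501 tested genes, in which 0.0286% of the genes were called higher and 0.00952% lower. Psma8 and Psmb11 did not reach 1 FPKM in 3 libraries, which left 48 members. Of these, 26 lay above 0 and 22 below, with a median log2 fold change of 0.013, against 0.014 over all tested genes. With the libraries scaled to equal totals these medians were -0.020 and -0.016, with 22 members above 0. At an unadjusted p under 0.05, 2 members were higher and 2 lower, where 6.22% and 7.73% of all tested genes were. In 3 members every DTA-1 library lay above every isotype library and in 3 others below, where 11.2% and 10.5% of all tested genes did so.

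The members lay closer to 0 than tested genes in general. The median size of their log2 fold changes, regardless of sign, was 0.102 (0.141 over all tested genes, and 0.132 over the 1831 with a mean of at least 50 FPKM). For 42 of the 48 (87.5%), the 95% interval of the difference lay within a 1.5-fold change in either direction, compared with 65.7% of all tested genes. The 6 with wider bounds were Psmb9, Psmc1, Psmc3ip, Psmc6, Psmd8 and Psme2. The members were also more abundant, with a median level of 122 FPKM against 14.2 over all tested genes. The share of intervals within this bound was not taken for genes of like level. Leaving out isotype replicate 2 brought the median of the members to 0.051, and 12 members were then higher and 3 lower without overlap, where 19.2% and 15.9% of all tested genes were. Leaving out isotype replicate 1 gave 5 higher and 4 lower (16.7% and 14.7% of all tested genes). Leaving out isotype replicate 3 gave 6 and 6 (17.8% and 16.9%), and leaving out DTA-1 replicate 2 gave 8 and 3 (13.0% and 12.0%). After removal of each library's trend with GC content and transcript length, 7 members were higher and 3 lower (13.9% and 11.9%).

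**Figure D2:**
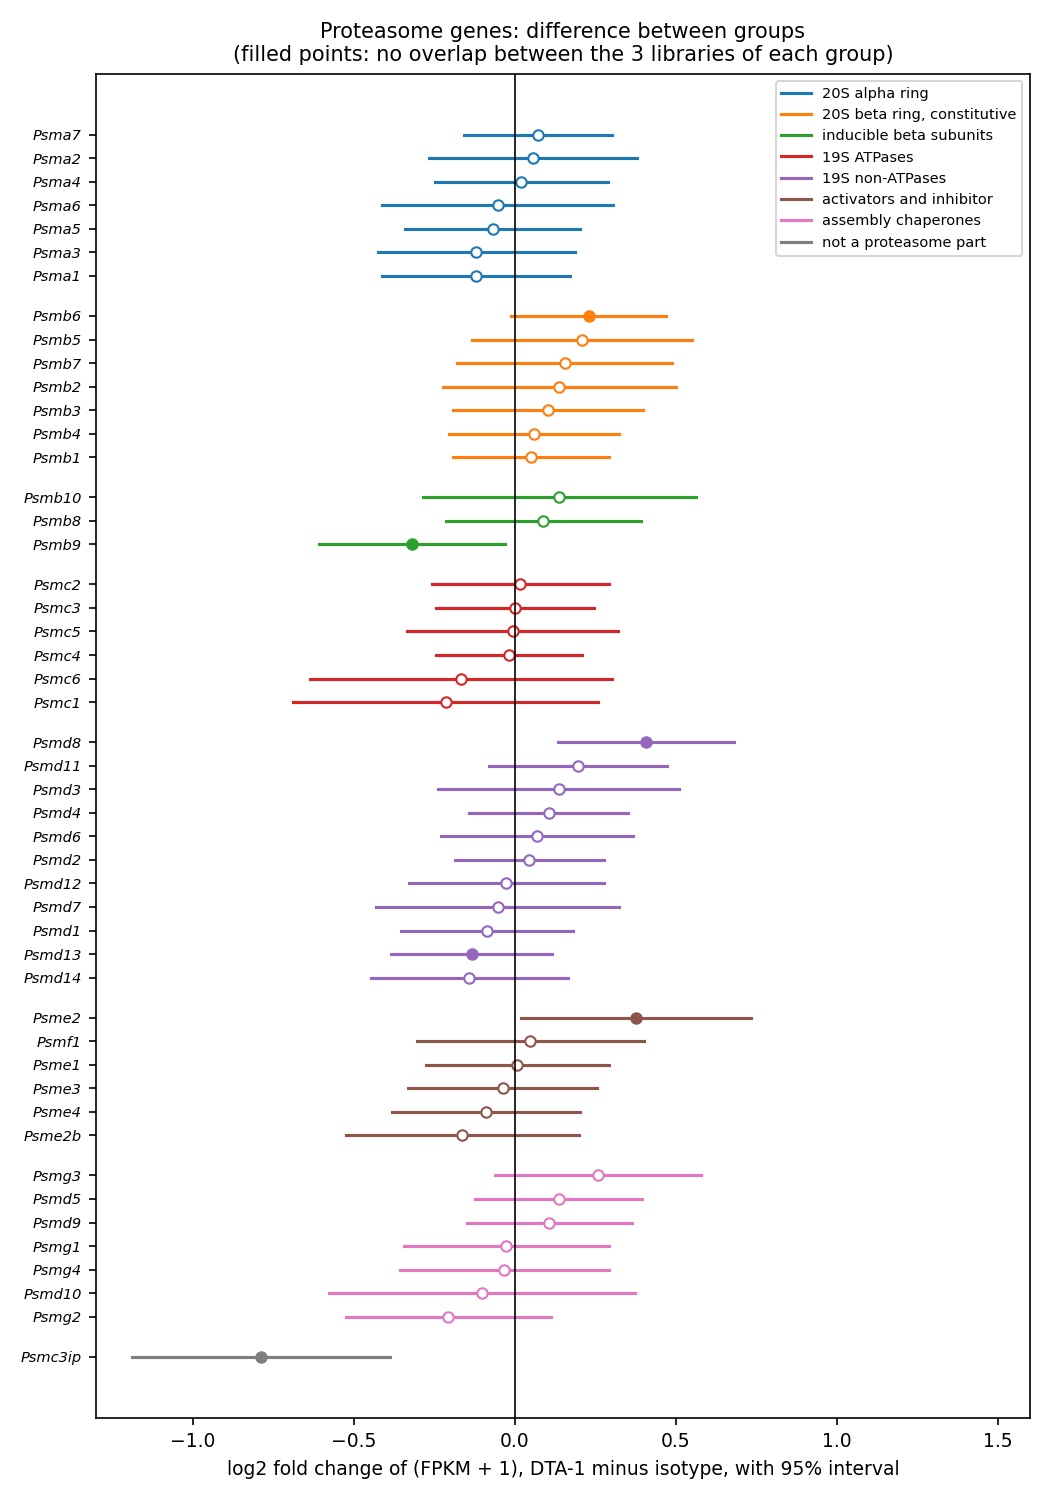
Log2 fold change of (FPKM + 1), DTA-1 minus isotype, for the 48 tested genes in order of role; points are the limma estimates, lines their 95% intervals, and filled points mark genes whose 3 libraries of each group do not overlap. All intervals except those of Psmb9, Psmc3ip, Psmd8 and Psme2 include 0, and the estimates run from -0.79 for Psmc3ip to 0.41 for Psmd8.

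The alpha ring of the core was evenly expressed in both groups. The 7 expressed alpha genes had overall means between 134 FPKM (Psma5) and 324 FPKM (Psma2), and their average per gene was 210 ± 25.6 FPKM in the isotype group and 207 ± 8.33 with DTA-1. Psma2, the most abundant member of all 50, measured 301, 376 and 278 FPKM in isotype replicates 1, 2 and 3, and 353, 299 and 336 FPKM in the DTA-1 libraries. The groups overlapped, and the same held for each alpha gene. Psma1 and Psma3 had the smallest p among them, with log2 fold changes of -0.12 ± 0.13 (SE) and -0.12 ± 0.13 (unadjusted p = 0.373 and 0.400 in limma). In both, isotype replicate 2 was the highest library, at 175 and 202 FPKM, and without it their fold changes were -0.0044 and -0.0046. The median of the ring was -0.053, and 0.088 without that library. Psma8, a testis-specific alpha subunit gene, was between 0 and 0.22 FPKM and was not tested.

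All 7 constitutive beta genes lay above 0, with a median log2 fold change of 0.14, and none passed the test. Their average per gene was 207.5 ± 14.3 FPKM in the isotype group and 225 ± 6.44 with DTA-1. That shared sign rested on 1 library. Isotype replicate 2 had the lowest value of 6 of the 7 genes, Psmb7 being the exception, and without it 4 of 7 lay above 0 with a median of 0.0038. After the removal of GC and length trends all 7 lay above 0, with a median of 0.14, as they did under both other scalings. With library quality weights 5 of 7 did, with a median of 0.044. The most abundant beta gene, Psmb3, measured 306, 236 and 283 FPKM in the isotype group and 316, 287 and 280.3 FPKM with DTA-1.

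Psmb6, which encodes the constitutive subunit with caspase-like activity, was the 1 beta gene of the constitutive set whose groups did not overlap. It measured 132, 127 and 142 FPKM in the isotype libraries and 161, 160 and 150.1 FPKM in the DTA-1 libraries, all of them above the highest isotype value. The log2 fold change was 0.23 ± 0.11 (adjusted p = 0.382 by limma), and 0.19 without isotype replicate 2. Psmb5, whose product has the chymotrypsin-like activity, measured 209.6, 152 and 216 FPKM in the isotype group and 222, 227 and 212 FPKM with DTA-1, a log2 fold change of 0.21 ± 0.15, which was 0.0497 without isotype replicate 2. Only isotype replicate 2 stood apart from the others in this gene. Psmb7, of the trypsin-like subunit, measured 205, 287 and 220.4 FPKM and 279.9, 247 and 261 FPKM. Its groups overlapped because of isotype replicate 2, and without that library the log2 fold change was 0.30 in place of 0.16 (adjusted p = 0.223 by limma). Without isotype replicate 1 it was 0.058.

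None of the 3 tested inducible beta genes passed, and the values of Psmb9 alone did not overlap between the groups. Psmb9, the counterpart of Psmb6, was lower with DTA-1: 66.1, 51.1 and 56.8 FPKM in isotype replicates 1, 2 and 3, and 45.3, 48.1 and 44.8 FPKM in the DTA-1 libraries. Each DTA-1 value lay below the lowest isotype value, and the log2 fold change was -0.32 ± 0.13 (limma, unadjusted p = 0.034, adjusted p = 0.308). Psmb8, the counterpart of Psmb5, measured 191, 148 and 186 FPKM in the isotype group and 199.9, 181 and 176 FPKM with DTA-1, with overlapping groups and a 95% interval of -0.21 to 0.39. Psmb10, the counterpart of Psmb7, measured 46.4, 29.3 and 46.4 FPKM and 47.6, 42.8 and 41.6 FPKM. Isotype replicate 2 was again low in both Psmb8 and Psmb10, and without it all 3 inducible genes lay below 0, with a median of -0.077; with library quality weights all 3 did too, with a median of -0.044. Left out in turn, isotype replicate 2 gave -0.405 for Psmb9 and isotype replicate 1 gave -0.223, and the difference did not pass under any alternative. Psmb11, the thymus-specific beta subunit gene, was between 0.01 and 0.04 FPKM and was not tested.

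**Figure D3:**
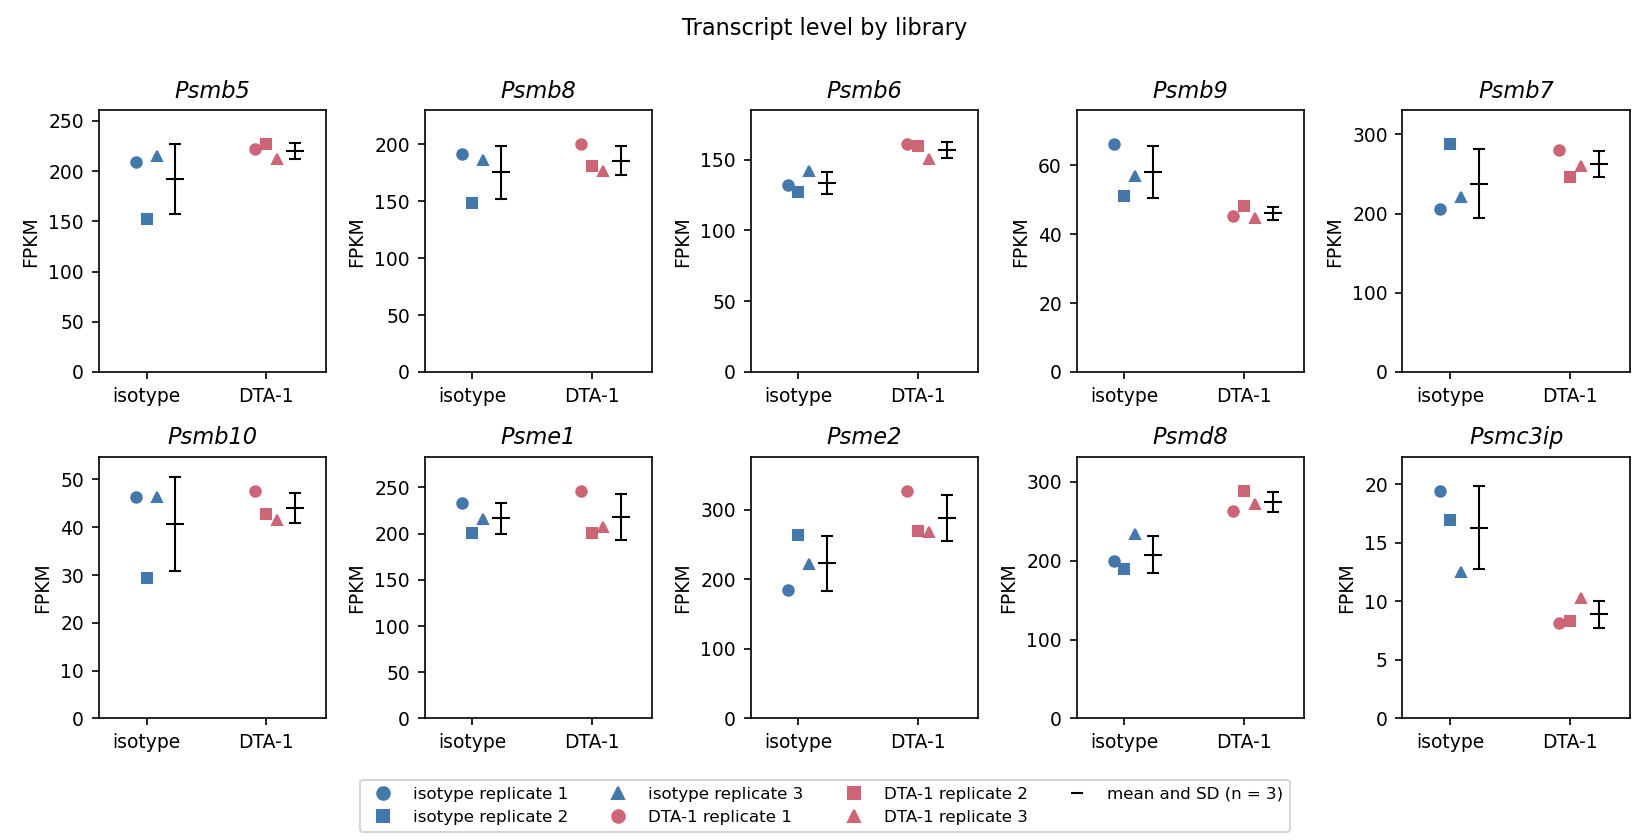
FPKM (vertical axes, from 0) of the 6 catalytic beta genes, both PA28 genes, Psmd8 and Psmc3ip in each library; colours give the group, symbols the replicate, and bars the mean and SD of 3 libraries. The DTA-1 values of Psmb9 and Psmc3ip lie below every isotype value, and those of Psmb6, Psme2 and Psmd8 above.

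Set against the constitutive genes they replace, the inducible genes were present at different levels. Psmb8 made up between 46.3% and 49.3% of the Psmb8 and Psmb5 total in the isotype libraries and between 44.4% and 47.4% in the DTA-1 libraries, so both were expressed at a like level. Psmb9 made up 33.4%, 28.7% and 28.6% of the Psmb9 and Psmb6 total with the isotype and 22.0%, 23.1% and 23.0% with DTA-1, without overlap. Psmb10 had the smallest share, 18.4%, 9.25% and 17.4% against 14.5%, 14.8% and 13.8% of the Psmb10 and Psmb7 total.

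As ratios, Psmb9 to Psmb6 stood at 0.434 ± 0.0574 (SD, n = 3) with the isotype and 0.294 ± 0.0106 with DTA-1, a log2 difference of -0.56. By an exact 2-sided permutation test over samples p was 0.10 (0.30 adjusted over the 3 pairs), which is the smallest p that 3 against 3 libraries can give. The ratio was lower in 3 of 3 DTA-1 libraries, and the difference lay between -0.61 and -0.45 with each library left out. Psmb8 to Psmb5 stood at 0.916 ± 0.0546 and 0.844 ± 0.052 (log2 difference -0.12, exact permutation p = 0.20, adjusted 0.30), with a log2 difference of -0.076 without isotype replicate 2. Psmb10 to Psmb7 stood at 0.179 ± 0.0676 and 0.168 ± 0.00726 (log2 difference -0.014, exact permutation p = 1.0, adjusted 1.0), and was -0.38 without isotype replicate 2, where the ratio was 0.102. Psmb9 and Psmb8 are neighbours in the MHC region on chromosome 17 of GRCm38 (mm10), at 34181987 to 34187764 and 34197721 to 34201454, with the peptide transporter gene Tap1 between them, on the strand opposite to Psmb9, at 34187553 to 34197225. The ends of Psmb9 and Tap1 overlap in the annotation, and whether strand was used in counting is not given in the sources used here, so reads from that stretch could count for either. Tap1 measured 89.0 ± 14.3 and 89.5 ± 5.13 FPKM (log2 fold change 0.019 ± 0.14).

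**Figure D4:**
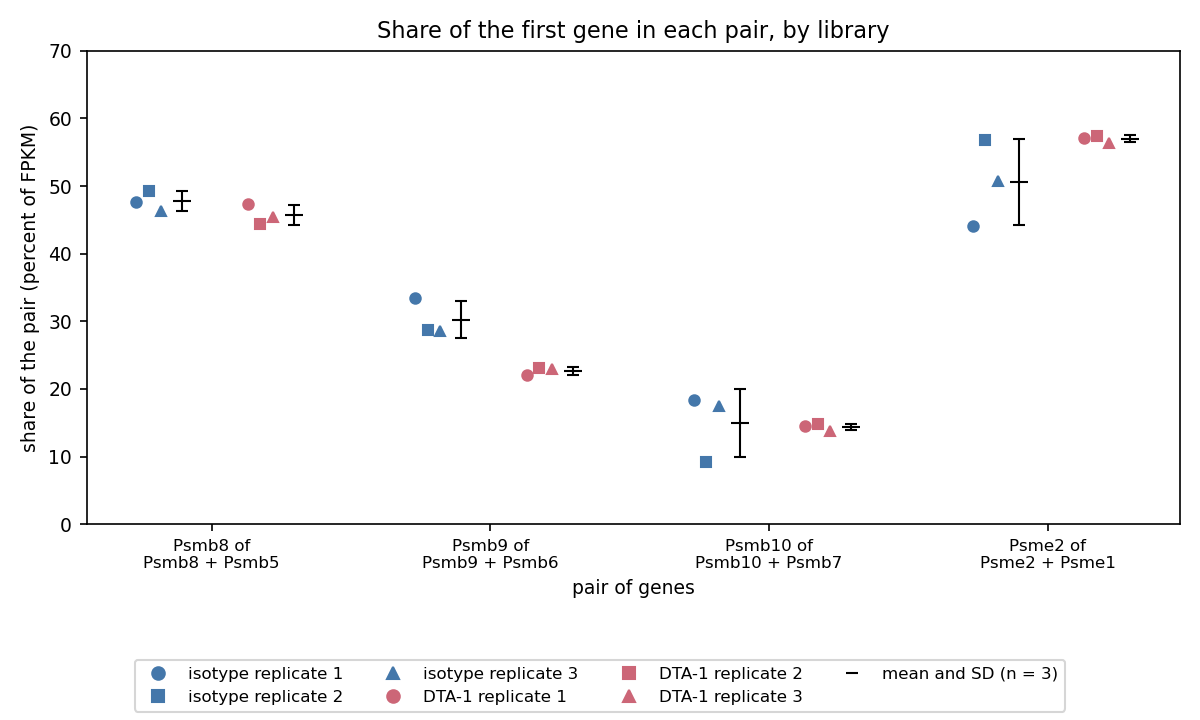
Share of the first gene in the summed FPKM of each pair (vertical axis, percent) in each library, for the 3 pairs of inducible and constitutive catalytic genes and for the PA28 pair; bars give the mean and SD of 3 libraries. The Psmb9 share is 28.6% to 33.4% with the isotype and 22.0% to 23.1% with DTA-1, while the shares of Psmb8, Psmb10 and Psme2 overlap between groups.

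Of the PA28 ring genes, Psme2 had the larger difference and neither passed. Psme2, which encodes the beta subunit, measured 184, 264 and 221 FPKM in the isotype libraries and 327, 269.7 and 268 FPKM in the DTA-1 libraries. The DTA-1 values lay above every isotype value, by a small margin over isotype replicate 2, and the log2 fold change was 0.38 ± 0.16 (limma, unadjusted p = 0.0409, adjusted p = 0.332). Left out in turn, isotype replicate 1 gave 0.248 and isotype replicate 2 gave 0.505. After removal of GC and length trends the groups of Psme2 overlapped, at a log2 fold change of 0.372. Psme1, of the alpha subunit, measured 233, 200.3 and 215 FPKM in the isotype group and 246, 200.5 and 208 FPKM with DTA-1, a log2 fold change of 0.0080 with a 95% interval of -0.28 to 0.29. Both genes lie on chromosome 14, at 55578123 to 55581529 (Psme1) and 55587441 to 55591113 (Psme2). The ratio of Psme2 to Psme1 was 0.79, 1.32 and 1.03 with the isotype and 1.33, 1.35 and 1.29 with DTA-1, so isotype replicate 2 lay among the DTA-1 libraries. The copy Psme2b on chromosome 11 was listed at a mean of 2.10 FPKM, and its transcript is identical to that of Psme2 in 99.4% of 794 aligned positions, so reads of one may have been counted for the other.

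The other modifiers of the core did not differ beyond their spread. Psme3, which encodes the nuclear PA28 gamma activator, measured 132 ± 18.5 FPKM in the isotype group and 127 ± 5.34 with DTA-1. Psme4, of the large activator PA200, stood at 18.0 ± 2.10 and 16.8 ± 1.22 FPKM, and Psmf1, of the inhibitor PI31, at 15.6 ± 2.83 and 16.0 ± 1.35 FPKM. Their log2 fold changes were -0.038, -0.089 and 0.049, each with an SE of 0.13 to 0.15. Without isotype replicate 2 they were 0.070, -0.066 and -0.10, so the sign turned for Psme3 and Psmf1. Among the 5 genes usually counted as immunoproteasome genes (Psmb8, Psmb9, Psmb10, Psme1 and Psme2), 4 lay above 0 with all libraries and 1, Psme2, without isotype replicate 2.

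On average per gene, the 19S cap was expressed at lower levels than the alpha and constitutive beta genes of the core. Single genes did not all follow this order: the cap gene Psmd8 had an overall mean of 241 FPKM, and the inducible core gene Psmb10 42.3 FPKM. The 6 ATPase genes averaged 126.5 ± 21.7 FPKM per gene with the isotype and 118.5 ± 7.44 with DTA-1, and the 11 other cap genes 107 ± 5.62 and 114 ± 1.57 FPKM. Psmc1, the most abundant ATPase gene, measured 141, 233 and 133 FPKM in isotype replicates 1, 2 and 3 and 138, 133 and 151 FPKM with DTA-1. Isotype replicate 2 alone stood far above the others, and the log2 fold change of -0.21 ± 0.21 became 0.039 without it. Psmc6 measured 118, 191 and 146 FPKM and 109, 133 and 161 FPKM, with the same library highest, and its log2 fold change of -0.17 became 0.012 without it. The fold changes of Psmc2, Psmc3, Psmc4 and Psmc5 lay between -0.018 and 0.017. Psmc4 varied least, at 106 ± 2.65 and 105 ± 2.96 FPKM.

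Psmd8, which encodes a lid subunit, had the largest positive difference of all members. It measured 199, 189 and 234 FPKM in the isotype libraries and 263, 288 and 272 FPKM in the DTA-1 libraries, so that all 3 lay above the highest isotype value. The log2 fold change was 0.41 ± 0.12 (limma, unadjusted p = 0.00868, adjusted p = 0.184), and it lay between 0.34 and 0.50 under all 14 alternatives, the lowest adjusted p being 0.0634 with library quality weights. Psmd8 was also the most abundant cap gene. Psmd11, another lid gene, measured 73.2, 93.4 and 82.4 FPKM in the isotype group and 95.8, 92.6 and 95.9 FPKM under DTA-1 (log2 fold change 0.20 ± 0.12, adjusted p = 0.532 by limma), and isotype replicate 2 lay within the DTA-1 range. Its fold change was 0.11 without isotype replicate 1. Psmd13, a lid gene too, was lower without overlap by a small margin, at 94.2, 103 and 96.1 FPKM against 81.9, 93.1 and 92.2 FPKM (log2 fold change -0.13 ± 0.11, adjusted p = 0.662 by limma).

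The remaining 8 cap genes overlapped between groups, with log2 fold changes from -0.14 to 0.14. Psmd2, a scaffold of the base, measured 137 ± 6.03 and 141 ± 3.06 FPKM. Psmd4, a ubiquitin receptor, measured 103 ± 6.68 and 111 ± 5.54 FPKM, and Psmd14, the deubiquitinase of the lid, 87.4 ± 13.1 and 78.6 ± 4.06 FPKM. The other 5, Psmd1, Psmd3, Psmd6, Psmd7 and Psmd12, had overall means between 70.1 and 128 FPKM.

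The assembly chaperones had the lowest median level of the roles, 31.3 FPKM, with overall means from Psmd9 to Psmg1 (40.9 FPKM), and none of the 7 separated the groups. Psmg1, the most abundant, measured 35.5, 49.4 and 39.6 FPKM in the isotype group and 39.9, 39.8 and 41.4 FPKM with DTA-1. Psmg3, which acts in the assembly of the alpha ring, had the smallest p, at 31.3, 23.9 and 25.6 FPKM and 36.2, 29.6 and 31.3 FPKM (log2 fold change 0.26 ± 0.14, adjusted p = 0.464 by limma). Psmg2, the partner of Psmg1, measured 47.5, 37.3 and 37.2 FPKM and 38.5, 31.7 and 34.9 FPKM (log2 fold change -0.21 ± 0.14, and -0.092 without isotype replicate 1). The cap chaperones Psmd5, Psmd9 and Psmd10 had log2 fold changes of 0.14, 0.11 and -0.10. Psmd10, at 44.1 FPKM in isotype replicate 2 and 24.4 to 29.8 FPKM in the other 5 libraries, again followed that library.

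**Figure D5:**
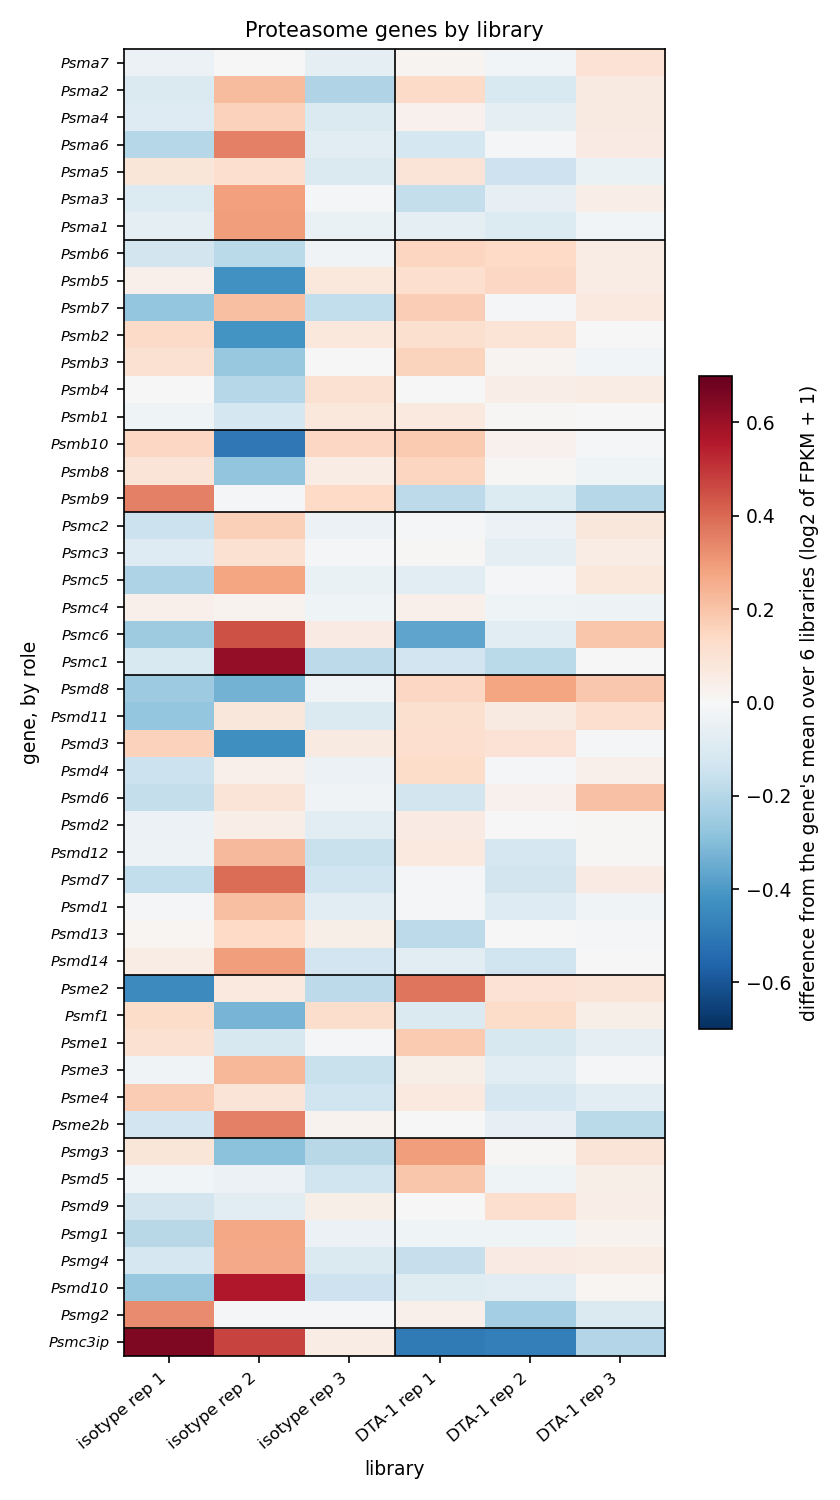
Difference of each gene in each library from the gene's mean over the 6 libraries (colour, log2 of FPKM + 1, from -0.7 to 0.7), with genes in rows by role and libraries in columns. Isotype replicate 2 is the most strongly coloured column, with Psmc1 and Psmd10 high and Psmb5 and Psmb10 low, while Psmc3ip is high in isotype replicates 1 and 2 and low in all 3 DTA-1 libraries.

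Psmc3ip, the recombination gene that shares the naming pattern, had the largest difference of the 50. It measured 19.4, 17.0 and 12.5 FPKM in isotype replicates 1, 2 and 3 and 8.18, 8.30 and 10.2 FPKM in the DTA-1 libraries. All DTA-1 values lay below the isotype values, and the log2 fold change was -0.79 ± 0.18 (limma, unadjusted p = 0.00186, adjusted p = 0.127). With library quality weights it passed, at -0.62 with an adjusted p of 0.0402 (range over all alternatives 0.0402 to 0.353), where 2.99% of all tested genes were called lower. Of 14 cell-cycle genes, among them Mki67 and Pcna, none passed, all 14 lay below 0 (median -0.81) and 12 had an unadjusted p under 0.05, where 7.73% of all tested genes were lower at that p. Without isotype replicate 1 their median was -0.52. Their mean stood at 1.04, 0.097 and 0.094 in the isotype libraries and -0.24, -0.53 and -0.46 in the DTA-1 libraries, relative to the mean of each gene on the log2 scale. The part of proliferation in the Psmc3ip difference was not tested. Without this gene the members' fold changes ran from -0.32 to 0.41.

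Genes that work with the proteasome gave no call either. Of 11 tested partners outside the naming pattern, none passed the limma test, and the groups did not overlap for 2, both higher with DTA-1 (11.2% of all tested genes). Ube3c, a ubiquitin ligase that binds the proteasome, measured 18.2, 18.7 and 19.6 FPKM in the isotype group and 25.0, 24.0 and 24.4 FPKM under DTA-1 (log2 fold change 0.36 ± 0.10, unadjusted p = 0.00792, adjusted p = 0.179 by limma). Shfm1, which encodes the smallest cap subunit and was the most abundant partner, measured 341 ± 104 and 295 ± 19.6 FPKM. Among 14 tested genes that supply ubiquitin or carry substrates, none passed the limma test. Uba1, which encodes the main ubiquitin-activating enzyme, measured 185, 182 and 179.9 FPKM and 264, 209 and 198 FPKM, higher without overlap (log2 fold change 0.28 ± 0.13, adjusted p = 0.391 by limma).

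The regulators of proteasome transcription were also listed. Nfe2l1 encodes NRF1, the transcription factor that raises proteasome genes when degradation falls short. It measured 42.6, 54.9 and 55.9 FPKM in the isotype group and 79.7, 70.7 and 67.1 FPKM with DTA-1, without overlap (log2 fold change 0.50 ± 0.14, unadjusted p = 0.00696, adjusted p = 0.171 by limma). It was the most abundant of the 10 tested genes of that list, none of which passed. Sel1l was the other one without overlap, also higher, where 11.2% of all tested genes were. In the list of interferon control and peptide loading, none of 9 tested genes passed. Irf2, which competes with Irf1 for interferon elements, measured 40.3, 36.7 and 30.3 FPKM and 27.1, 28.0 and 28.5 FPKM (log2 fold change -0.34 ± 0.13, adjusted p = 0.294 by limma). Its groups did not overlap, where 10.5% of all tested genes were lower without overlap. B2m, the most abundant gene of the list, measured 3021 ± 484 and 3020 ± 58.0 FPKM.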

How the data were processed

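Directional libraries, 3 isotype and 3 DTA-1, were made from 1.3 ug of RNA each (NEBNext Ultra II), per the labels' protocols. The submitters' processing notes name TopHat and mm10, without versions; the program that quantified genes is not given. The authors aligned and summarised the reads before they deposited the FPKM values, 1 per gene and library, per the submitters' processing notes as to TopHat and mm10. The unit is not named in the tables: it was inferred, since the values are not whole numbers and their lowest steps fall with transcript length. Sample titles gave the groups and replicate numbers; treatment tags of later replicates differ from the titles (IgG3b, DTA-2), for a reason the labels do not give, and were not used.

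The 10501 genes that reached 1 FPKM in 3 or more libraries entered the test on log2(FPKM + 1), a scale that understates changes of low genes, with limma 3.58.1 in R 4.3.3 (trend, robust, 2-sided, Benjamini-Hochberg over all tested genes, threshold 0.05). Lengths, GC content and positions came from GENCODE M21 on GRCm38; trends were removed with mgcv 1.9.3. Estimated fragments per tested member, which rest on the rough estimate of depth, were 35 (Psme2b) to 18612 (Psma2). Libraries of 1 group differed by 6.10 to 52.7 times what counting alone gives (median over genes), so none was treated as a copy. On simulated data for this comparison (10501 genes, 200 changed), 34.8% of 1.5-fold, 92.4% of 2-fold and 99.1% of 4-fold changes were recovered, and 5.14% of calls were false. The simulated noise was normal, independent between genes and drawn with the variances that limma fitted. Trends shared within a library, such as that with GC content, were absent. With 200 changed genes simulated and 4 called in the real data, these shares need not hold here.

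The members, gene lists and tests were chosen with earlier results of these data known. Named genes were the catalytic, activator and inhibitor genes, the most abundant member and the 2 smallest p-values of each role, and members with an unadjusted p under 0.05; Psmd13 and further examples were chosen after their values were seen. Named from other lists were the most abundant gene and those with an unadjusted p under 0.05, except a few genes not reported here; Uba1 was chosen after its values were seen. Pair ratios were tested by exact permutation in Python 3.11.15, and Spearman's rho was computed with scipy 1.17.1. Alternatives were a pseudocount of 0.1, other filters and scalings, a replicate block, library quality weights, trend removal and leaving out each library. Plots used matplotlib 3.10.9.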

Additional observations from a re-analysis of the deposited data

How the results depend on the processing

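No member passed under the other pseudocount, filters, scalings, the replicate block, trend removal or with any 1 library left out; with library quality weights 1 was lower, Psmc3ip, which is no part of the proteasome. Over all tested genes, 3 were higher and 1 lower. The higher count was 1 without a filter and 1 with the GC and length trend removed, and 161 with 314 lower under quality weights; 2 were lower at equal totals. Leaving out 1 library gave 0 to 3 higher and 0 to 1 lower genes. It left 4 to 12 proteasome genes higher and 3 to 6 lower without overlap. Of all tested genes, 13.0% to 19.2% were then higher and 12.0% to 16.9% lower without overlap. These shares were not taken with DTA-1 replicate 1 or 3 left out. Log2 differences of the Psmb10 to Psmb7 ratio ran from -0.38 to 0.20 (0.20 when isotype replicate 1 was left out, 0.14 for isotype replicate 3 and 0.021 for DTA-1 replicate 3). Trend removal gave 7 proteasome genes higher and 3 lower without overlap, where 13.9% and 11.9% of all tested genes were. The causes of these shifts were not tested, beyond fewer libraries.

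With the replicate number as a block, 59 genes were higher and 126 lower, none of them a proteasome gene. Deviations of same-numbered libraries correlated at 0.393, -0.101 and -0.129. Isotype replicate 2 correlated best with DTA-1 replicate 3 (0.485), and isotype replicate 3 with DTA-1 replicate 2 (0.385). With 3 libraries per group, and trends shared within a library, these values cannot show whether any libraries are paired. By the rough estimate of depth, counts were low only in the lowest members: about 35 fragments for Psme2b and about 2 for Psma8 and Psmb11.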
